A study of Mus musculus with 8 samples.

Results

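Cultured and freshly isolated splenic stroma of wild type (WT) mice were compared on Illumina MouseRef-8 bead arrays, with 2 arrays of cultured stroma and 2 of fresh stroma out of 8 arrays in the series. All 4 arrays came from C57BL/6 mice of genotype LTbR+/+, so the lymphotoxin β receptor (LTβR) was intact in both groups, and the methods give an age of 8 to 10 weeks. Cultured stroma consisted of adherent cells from whole spleens that had been ground with scissors and kept in DMEM with 10% fetal bovine serum. Cells that had not attached by day 5 to 7 were discarded. From day 14 the attached cells were passaged each week, and their RNA dates from passage 2 to 3, in week 3 to 4. Fresh stroma was the part of the spleen that stayed on a 70 µm mesh after rubbing and washing. The groups thus differed in the way the tissue was taken apart as well as in culture, and these cannot be told apart here. The remaining arrays held fresh stroma of LTβR-KO mice and WT splenocytes, 2 of each. Whether the arrays of a group came from separate mice or cultures is not settled by the sources used here, so a p-value here reflects only how far these arrays scatter, and that scatter may be technical. Of 18 fibroblast genes described below, 13 were detected on all 4 arrays, and 16 of 17 macrophage genes were brighter in cultured stroma.

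The spleen has no epithelium, and its framework is made of reticular fibroblasts, follicular dendritic cells, smooth muscle of the capsule, trabeculae and arteries, and a rich endothelium of sinuses and arterioles. Reticular fibroblasts lay down the fibres on which lymphocytes move and secrete the chemokines that hold T and B cells in their zones. Macrophages of the red pulp take up worn red blood cells and recycle their iron, and those of the marginal zone sample the blood. Stroma put on plastic keeps cells that adhere and spread, which in general are fibroblasts and macrophages, and lymphocytes, which carry lymphotoxin, are largely washed away.

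Of 24613 probes, 11692 were detected (p under 0.05) on each array of the cultured or of the fresh WT group and were described. Signals are given as log2 of the bead signal after background correction and quantile normalization, and a gene is represented by its brightest probe (8624 genes). A difference is the cultured minus the fresh mean on this scale, with its standard error (SE), and was called where limma gave a p under 0.05 after Benjamini-Hochberg adjustment over 12389 tested probes. All adjusted p-values below are from this fit. Median bead signals were 66.6 and 63.4 on the cultured arrays and 55.9 and 60.1 on the fresh ones, with 9900 and 10879 probes detected on the cultured and 11094 and 11283 on the fresh arrays. Replicate arrays differed with an SD of 0.28 (cultured) and 0.29 (fresh) on the log2 scale.

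Most of the transcriptome differed between cultured and fresh stroma. In cultured stroma 4142 probes were higher (35.4%) and 3806 were lower (32.6%), so that 7948 passed the test (68.0%) and 3744 did not. Over 4-fold, 688 probes were higher (5.88%) and 862 lower (7.37%). The median difference over the probes was −0.02 after quantile normalization, which gives every array the same distribution of signals. By gene, 2855 rose (33.1%), 416 of them over 4-fold (4.82%), and 2947 fell (34.2%), 639 of them over 4-fold (7.41%), and the quartiles of the difference were −0.72 and 0.71 around a median of −0.07. These shares are the background for each gene list below. A gene detected in 1 group only could hardly move other than toward that group, which limits the counts of lists rich in such genes. Probes detected on both cultured arrays and neither fresh array numbered 697, and those detected on both fresh arrays and neither cultured array numbered 1323. The plot of mean levels shows both sets as bands along the axes.

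**Figure D1:**
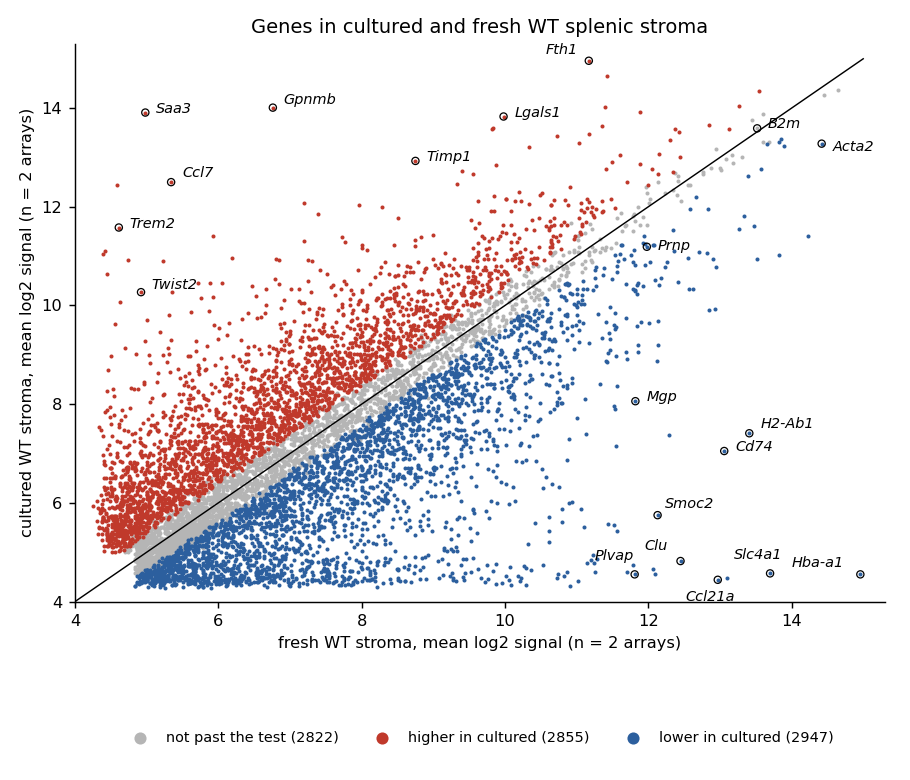
Mean log2 signal of 8624 genes in cultured WT stroma (y axis) against fresh WT stroma (x axis), 2 arrays each, with genes coloured by direction at an adjusted p under 0.05 and the line of equal levels in black. Saa3, Ccl7 and Trem2 lie near the top left, and Hba-a1, Slc4a1 and Ccl21a lie at the bottom right.

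The 10 genes that rose most among those detected on all 4 arrays were Saa3, Ccl7, Ccl8, Ccl9, Ccl12, Gpnmb, Ms4a6d, Mmp3, Pdpn and Twist2. Saa3, an acute phase protein gene of mouse macrophages and fibroblasts, had log2 signals of 13.91 and 13.91 in cultured stroma, against 4.94 and 5.02 in fresh stroma. Its difference was 8.93 (SE 0.18, adjusted p = 1.09e-10), and the fresh arrays were close to the detection limit. Ccl7, a chemokine gene for monocytes, stood at 12.44 and 12.56 on the cultured arrays and at 5.29 and 5.38 on the fresh ones. Ms4a6d, a membrane protein gene of macrophages, gave 10.95 and 11.86 in cultured and 5.84 and 5.99 in fresh stroma (difference 5.49, SE 0.26, adjusted p = 3.74e-08). Twist2 encodes a mesenchymal transcription factor. It read 10.24 and 10.29 in cultured stroma, against 4.87 and 4.97 in fresh stroma, a 40.6-fold rise. Pdpn, the gene of gp38 (podoplanin), rose 29.6-fold, with 12.02 and 12.15 in cultured and 6.91 and 7.48 in fresh stroma. The monocyte chemokine genes Ccl8, Ccl9 and Ccl12, the stromelysin gene Mmp3 and Gpnmb rose by folds between 26.6 for Ccl12 and 151 for Gpnmb.

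The 10 genes that fell most among those detected on all 4 arrays were Smoc2, Ramp2, Aqp1, Stab2, Flt1, Sned1, Il4i1, E2f2, Cd74 and H2-Ab1. Smoc2 encodes a calcium-binding matrix protein. Its log2 signals were 5.61 and 5.88 in cultured stroma and 12.06 and 12.19 in fresh stroma, an 83.3-fold fall (adjusted p = 2.23e-10). Ramp2, a partner of the adrenomedullin receptor in endothelium, had 5.51 and 5.35 in cultured and 11.59 and 11.52 in fresh stroma. Aqp1, a water channel gene of endothelium and red cells, read 5.56 on each cultured array, against 11.38 and 11.65 on the fresh arrays, and its second probe fell at least 8.27-fold. These genes were among the brighter ones in fresh stroma and sat close to the detection limit in cultured stroma. Stab2, a scavenger receptor gene of sinusoidal endothelium, fell 58.1-fold, and Flt1, which encodes a receptor of vascular endothelial growth factors, fell 36.3-fold (at least 2.18-fold on its second probe). Sned1 (48.0-fold), the amino acid oxidase gene Il4i1 (42.8-fold) and the cell cycle factor gene E2f2 (36.4-fold) fell as well, along with Cd74 and H2-Ab1 described below.

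A fold is a lower bound where a probe was detected on both arrays of one group and neither of the other. It was then taken against the dimmest detected signal of the arrays that lacked it, or the probe's own signal where that was higher. The highest such rise was that of Fcrls, an Fc receptor-like gene that mouse microglia and some macrophages express. Its signals were 12.51 and 12.38 in cultured stroma, against 4.51 and 4.66 in fresh stroma, at least 198-fold higher (adjusted p = 5.29e-11). Trem2, a lipid-sensing receptor gene of macrophages, followed at 11.64 and 11.52 in cultured and 4.67 and 4.56 in fresh stroma, at least 108-fold higher. A pair of neuropeptide genes came next. Cck, the cholecystokinin gene, read 11.04 and 11.16 on the cultured and 4.40 and 4.44 on the fresh arrays, at least 77.8-fold higher, and Npy, the neuropeptide Y gene, read 11.10 and 11 on the cultured and 4.37 and 4.41 on the fresh arrays, at least 75.2-fold higher. Both were bright in each cultured replicate and were detected on none of the other 6 arrays. Other genes of this kind were the lectin receptor gene Clec4d (at least 56.4-fold), the chemokine genes Ccl6 (at least 69.1-fold), Ccl3 (at least 38.2-fold) and Ccl2 (at least 27.8-fold), the folate receptor gene Folr2 (at least 19.9-fold) and the macrophage elastase gene Mmp12 (at least 17.8-fold).

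In the other direction, Hba-a1, the α-globin gene, had 4.65 and 4.45 in cultured stroma and 14.96 on both fresh arrays, the highest level that the normalization assigns (at least 1011-fold lower, adjusted p = 2.58e-11). Ccl21b and Ccl21a are near-identical copies that encode the chemokine for T cells and dendritic cells, so their probes may not separate them. They fell at least 279-fold and 255-fold, and Ccl21a read 4.40 and 4.48 in cultured against 12.98 and 12.97 in fresh stroma. Nup210, a nuclear pore gene, also fell by a large bound, with 4.93 and 4.79 in cultured and 11.30 and 11.26 in fresh stroma (at least 78.9-fold). The remaining 6 genes with the largest bounds belong to red cells (Slc4a1, Alas2), B cells (Cd79b, Fcmr), vessels (Plvap) and antigen presentation (H2-Eb1).

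**Figure D2:**
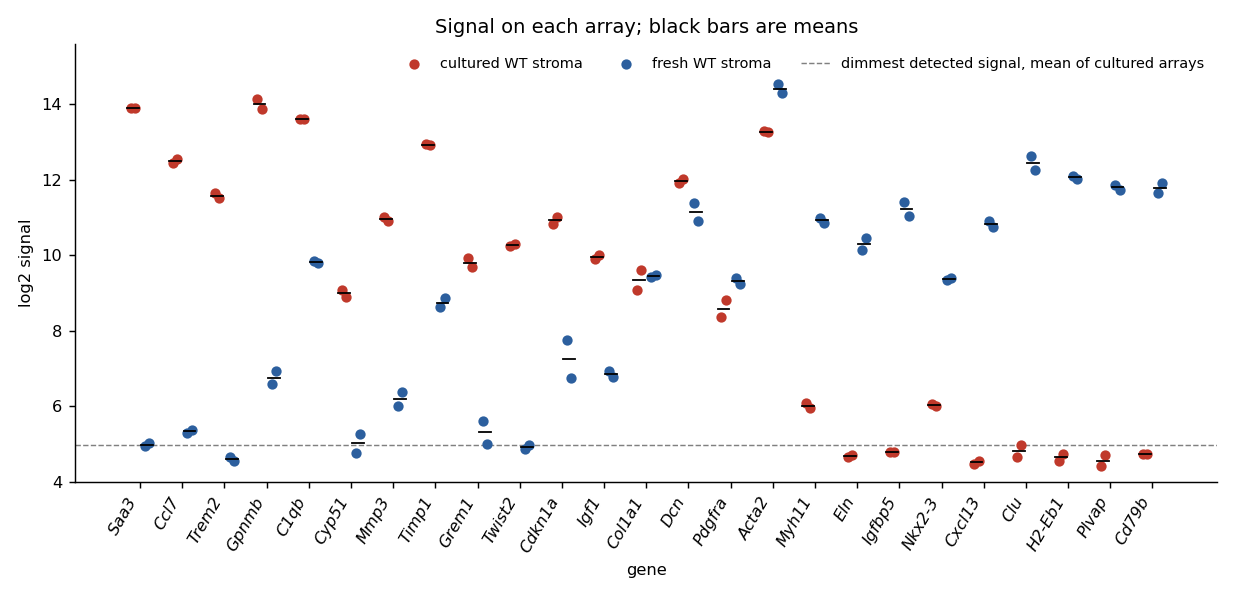
Log2 signal of 25 genes on each array of cultured WT stroma (red, left of each pair) and fresh WT stroma (blue, right), with black bars at the means of 2 arrays and a dashed line at the dimmest detected signal averaged over the cultured arrays. For most genes replicates lie close together compared with the gap between groups. The gap is narrow for Dcn, and the groups overlap for Col1a1.

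Macrophage genes rose as a group in cultured stroma. Of 17 measured genes shared by macrophages, 16 rose and 1 fell, with a median difference of 2.50 against −0.07 over all genes. Lyz1, counted among the 16 by its brightest probe, had probes called in opposite directions. C1qb and C1qc, chains of the complement starter C1q, gave 13.60 and 13.60 and 13.55 and 13.62 in cultured stroma. Fresh stroma gave 9.85 and 9.80 for C1qb and 9.96 and 9.68 for C1qc, so both rose over 13-fold (13.7-fold and 13.6-fold). Adgre1, which encodes F4/80, stood at 10.68 and 10.86 in cultured and at 8.12 and 8.42 in fresh stroma (5.66-fold, adjusted p = 2.92e-07). Cd14, the lipopolysaccharide co-receptor gene, rose 18.8-fold, and Tyrobp, the signalling adaptor of Trem2, rose 12.8-fold. The member that fell was Mertk, the efferocytosis receptor gene, with a difference of −0.59 (SE 0.17, adjusted p = 0.0118). Its call was lost without cultured replicate 1 (adjusted p = 0.0604) and under scaling to the 75th percentile (adjusted p = 0.626). In bulk RNA, more or fewer cells of a type and more or less RNA per cell cannot be told apart.

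Genes that macrophages use to take up and store lipid also rose, 16 of 17 measured genes with a median difference of 2.42. Gpnmb, a glycoprotein gene of lipid-laden macrophages, read 14.14 and 13.87 in cultured and 6.59 and 6.94 in fresh stroma on its brightest probe, and its other 3 probes rose as well. Apoc2, an apolipoprotein gene, had 9.19 and 9.08 in cultured and 5.35 and 5.24 in fresh stroma, a 14.3-fold rise. Lgals3, which encodes galectin-3, rose 7.88-fold. The member that did not pass was Abcg1, a cholesterol exporter gene.

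Genes of the resident macrophage types of the spleen did not follow. Red pulp and iron recycling genes split evenly, with 5 of 12 higher and 5 lower. Fth1, the ferritin heavy chain gene, read 14.96 on both cultured arrays, the highest level that the normalization assigns, and 11.18 and 11.16 on the fresh arrays. Trf, the transferrin gene, rose 6.76-fold. Spic, the transcription factor gene of red pulp macrophages, was detected on neither cultured array (4.40 and 4.37) and gave 5.96 and 6.11 in fresh stroma, at least 2.08-fold lower in cultured stroma (adjusted p = 6.50e-06). The iron exporter gene Slc40a1 fell 3.92-fold, with 10.83 and 11.04 in cultured and 12.90 and 12.92 in fresh stroma. Hmox1, which encodes the heme-degrading enzyme, did not pass (difference 0.06, SE 0.27, adjusted p = 0.856), while scaling to the 75th percentile gave 0.94 (adjusted p = 0.00149). Of 5 measured genes of marginal zone and metallophilic macrophages, 4 fell and none rose. Only the fresh group detected 3 of these 5 on both of its arrays, so the count was partly set by the detection filter. Marco, a scavenger receptor gene of the marginal zone, gave 5.0 and 4.69 in cultured and 6.57 and 6.87 in fresh stroma (at least 3.35-fold lower), and Timd4, a phosphatidylserine receptor gene, fell at least 4.83-fold. Siglec1, the gene of sialoadhesin on metallophilic macrophages, overlapped between the groups, with 7.69 and 7.20 in cultured and 7.43 and 7.83 in fresh stroma.

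**Figure D3:**
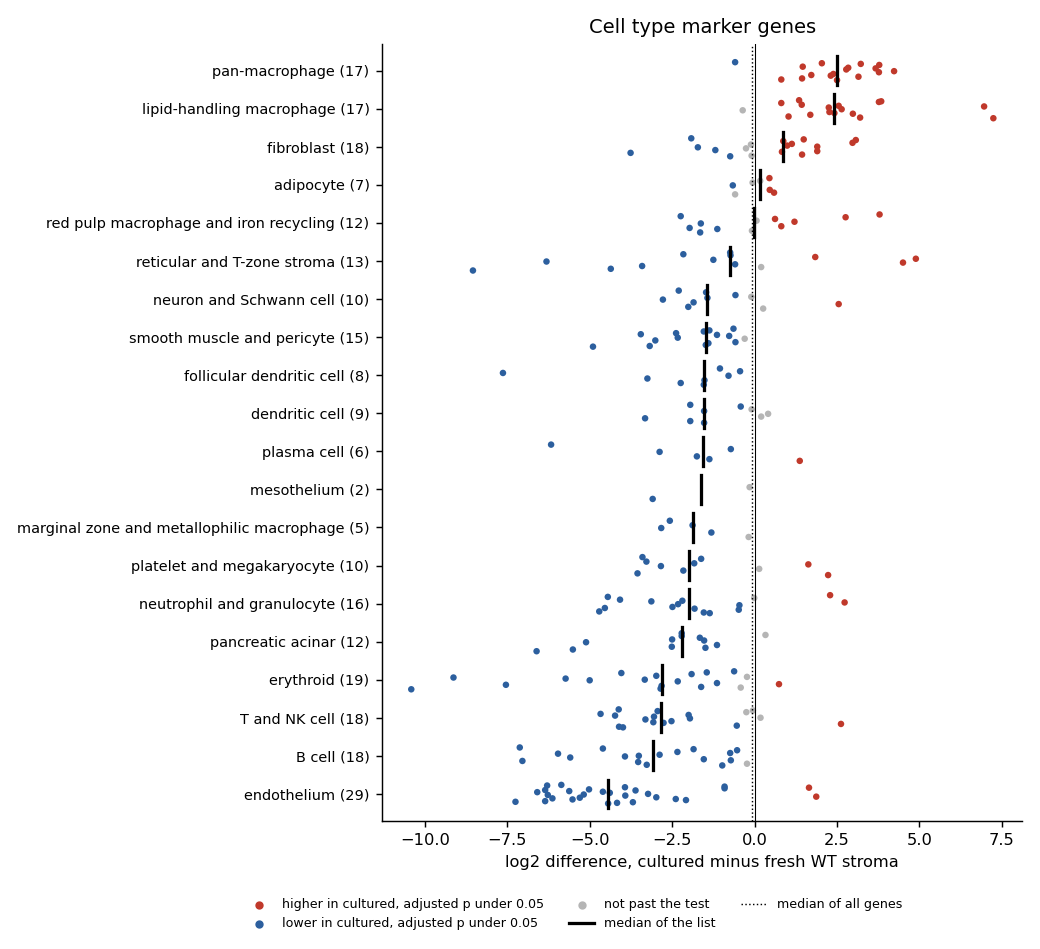
Log2 difference, cultured minus fresh WT stroma, of each measured gene in 20 lists of cell type markers, ordered by the list median (black bar), with the number of genes measured in brackets and the median of all genes dotted. Macrophage lists lie to the right with medians of 2.50 and 2.42, and the endothelial list lies furthest left with a median of −4.44.

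Inflammatory chemokine and cytokine genes rose in 19 of 25 cases and fell in 5, with a median difference of 1.60, or 0.86 without the detection filter, which lets in genes below detection in both groups. Only the cultured group detected 8 of the 25 on both of its arrays, and only the fresh group 3. The former could hardly fall and the latter hardly rise, so the counts were partly set by the detection filter. Ccl8, a ligand for monocyte and eosinophil receptors, had 11 and 10.80 in cultured and 5.07 and 5.40 in fresh stroma. Ccl3, an inflammatory chemokine gene, gave 10.00 and 10.15 in cultured stroma and was below detection in fresh stroma (4.64 and 4.62). Cxcl1, a neutrophil chemokine gene of fibroblasts and macrophages, rose 5.89-fold, with 9.18 and 9.05 in cultured and 6.48 and 6.63 in fresh stroma. The 5 genes that fell were Ccl24, Cxcl9, Cxcl10, Cx3cl1 and Il18. Among them Cxcl9, an interferon-γ-induced chemokine gene for activated T cells, moved most, with 5.84 and 5.91 in cultured and 9.53 and 9.57 in fresh stroma (12.8-fold lower, adjusted p = 5.87e-09). Macrophage markers rose on the same arrays, with mean signals of 10.57 and 10.67 on cultured and 8.16 and 8.19 on fresh arrays over the 17 genes, and their part in the chemokine rises was not tested.

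Acute phase and complement genes did not move one way, since 5 of 12 rose and 5 fell. Besides Saa3, Lcn2, which encodes the iron-siderophore trap lipocalin 2, rose 4.89-fold (9.35 and 9.60 in cultured, 7.22 and 7.16 in fresh stroma). C2, a complement component gene, had 6.75 and 6.62 in cultured and 10.46 and 10.59 in fresh stroma, a 14.3-fold fall. Cfb, the factor B gene, was detected on neither cultured array (4.59 and 4.66), against 7.44 and 7.55 in fresh stroma, and Serping1, the C1 inhibitor gene, fell 5.94-fold. Haptoglobin (Hp) gave 6.89 and 6.81 in cultured and 6.90 and 6.91 in fresh stroma and did not pass (adjusted p = 0.763), whereas its second probe rose 2.25-fold (adjusted p = 4.23e-05).

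Lysosomal genes rose as a group. Lysosomes digest what macrophages engulf, and many of their genes share a short E box in their promoters. Of 39 measured genes, 34 rose and 2 fell, and the median difference was 1.34. Lgmn, which encodes the protease legumain, had 12.70 and 12.77 in cultured and 9.53 and 9.28 in fresh stroma, a 10.1-fold rise (adjusted p = 4.74e-08). Ctsd, the cathepsin D gene, gave 13.45 and 13.12 in cultured and 10.95 and 11.12 in fresh stroma. Gusb, the β-glucuronidase gene, rose 6.78-fold on its brightest probe and 14.1-fold on the other, and Lamp1, a gene of the lysosomal membrane, rose 2.66-fold with 12.66 and 13.17 in cultured and 11.43 and 11.57 in fresh stroma. The genes that fell were Ctse, an aspartic protease gene of erythroid and lymphoid cells (at least 5.94-fold), and Npc1, the cholesterol exporter of the lysosome, with 5.36 and 4.48 in cultured and 6.29 and 6.41 in fresh stroma. Npc1 was detected on only 1 cultured array. The list shares 6 measured genes with the lipid-handling list and 1 with the macrophage list.

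Genes of cholesterol synthesis and uptake rose without a fall, 15 of 17 measured genes with a median difference of 1.91. Only the cultured group detected 4 of these 17 on both of its arrays, and such genes could hardly fall. Cyp51, the lanosterol demethylase gene, read 9.08 and 8.91 in cultured and 4.77 and 5.28 in fresh stroma, where 1 array detected it (difference 3.97, SE 0.19, adjusted p = 3.62e-08). Sqle encodes squalene epoxidase. It had 10.49 and 10.36 in cultured and 6.78 and 6.90 in fresh stroma, a 12.0-fold rise. Hsd17b7, which encodes a reductase late in the pathway, rose 11.7-fold, with 9.67 and 9.44 in cultured and 6.00 and 6.02 in fresh stroma. Hmgcs1, the synthase that opens the pathway, rose 2.93-fold, and Mvk, the mevalonate kinase gene, was detected only in cultured stroma (6.61 and 6.67, against 4.77 and 4.70 in fresh stroma, at least 3.54-fold higher). Srebf2, the gene of the transcription factor that drives the pathway, and Stard4 were the members that did not pass.

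Promoters of genes that moved together are shown to place their short motifs. They run from 250 bases before to 50 after each start in RefSeq genes of the mouse build GRCm38.p6, and 32851 promoters were in the table. Capitals mark ATTGG on either strand (CCAAT on the other), the core of the CCAAT box, in Cyp51, Mvk and Hsd17b7 of cholesterol synthesis and in H2-Aa and H2-Eb1 of MHC class II. They mark CACGTG, the E box that reads the same on both strands, in Ctsd and Lamp1 of the lysosome, and AGATAA on either strand (TTATCT on the other), a GATA motif, in Alas2 of red cells.
Cyp51, chr5:4104648-4104947, minus strand: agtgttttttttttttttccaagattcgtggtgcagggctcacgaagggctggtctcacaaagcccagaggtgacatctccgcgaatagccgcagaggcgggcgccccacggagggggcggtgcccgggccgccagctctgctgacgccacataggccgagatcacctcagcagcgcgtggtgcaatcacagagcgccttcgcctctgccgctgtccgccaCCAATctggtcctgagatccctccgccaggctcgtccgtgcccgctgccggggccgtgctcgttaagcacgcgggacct
Mvk, chr5:114444019-114444318, plus strand: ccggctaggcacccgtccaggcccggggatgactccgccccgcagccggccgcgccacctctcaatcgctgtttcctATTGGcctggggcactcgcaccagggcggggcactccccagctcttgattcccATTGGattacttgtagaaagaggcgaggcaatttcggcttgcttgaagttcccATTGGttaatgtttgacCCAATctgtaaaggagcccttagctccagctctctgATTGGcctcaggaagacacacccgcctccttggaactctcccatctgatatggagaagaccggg
Hsd17b7, chr1:169969156-169969455, minus strand: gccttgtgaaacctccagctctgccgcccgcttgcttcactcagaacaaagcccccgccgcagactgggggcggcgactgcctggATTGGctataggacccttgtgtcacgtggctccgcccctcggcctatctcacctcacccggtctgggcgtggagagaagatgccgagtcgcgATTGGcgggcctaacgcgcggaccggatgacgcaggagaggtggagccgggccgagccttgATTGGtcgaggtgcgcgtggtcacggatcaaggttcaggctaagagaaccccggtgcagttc
H2-Aa, chr17:34287774-34288073, minus strand: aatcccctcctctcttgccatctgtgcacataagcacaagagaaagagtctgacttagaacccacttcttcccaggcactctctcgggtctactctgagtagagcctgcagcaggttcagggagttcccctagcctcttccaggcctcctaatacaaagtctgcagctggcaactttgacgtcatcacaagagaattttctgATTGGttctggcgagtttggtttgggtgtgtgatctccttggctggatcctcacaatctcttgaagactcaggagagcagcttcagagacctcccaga
H2-Eb1, chr17:34305617-34305916, plus strand: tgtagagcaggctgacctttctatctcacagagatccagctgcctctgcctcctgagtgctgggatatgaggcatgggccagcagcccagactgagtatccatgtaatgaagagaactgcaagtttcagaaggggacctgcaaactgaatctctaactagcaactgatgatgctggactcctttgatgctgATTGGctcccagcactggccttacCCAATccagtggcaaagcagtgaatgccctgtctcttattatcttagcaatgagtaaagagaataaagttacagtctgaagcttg
Ctsd, chr7:142387778-142388077, minus strand: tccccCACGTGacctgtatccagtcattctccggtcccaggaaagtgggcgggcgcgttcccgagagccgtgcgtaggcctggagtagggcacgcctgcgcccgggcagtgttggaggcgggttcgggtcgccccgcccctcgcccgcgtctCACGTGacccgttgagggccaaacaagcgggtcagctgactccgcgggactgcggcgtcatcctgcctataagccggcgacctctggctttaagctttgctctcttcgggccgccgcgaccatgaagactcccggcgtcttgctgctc
Lamp1, chr8:13158911-13159210, plus strand: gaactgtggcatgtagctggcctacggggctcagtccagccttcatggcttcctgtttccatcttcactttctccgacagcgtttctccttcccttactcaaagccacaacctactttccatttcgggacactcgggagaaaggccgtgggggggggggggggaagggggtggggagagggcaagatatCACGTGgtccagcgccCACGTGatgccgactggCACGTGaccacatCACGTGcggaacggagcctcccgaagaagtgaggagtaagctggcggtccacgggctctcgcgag
Alas2, chrX:150547167-150547466, plus strand: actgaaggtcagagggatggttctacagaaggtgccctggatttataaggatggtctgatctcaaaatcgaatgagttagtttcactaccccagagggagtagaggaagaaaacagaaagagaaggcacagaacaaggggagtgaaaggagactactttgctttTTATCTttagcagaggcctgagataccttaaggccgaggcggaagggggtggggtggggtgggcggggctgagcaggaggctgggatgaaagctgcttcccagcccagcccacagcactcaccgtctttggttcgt

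ATTGG was in all 14 cholesterol promoters and all 6 MHC class II promoters in the table, against 37.4% of all promoters. It was also in 15 of 23 cell cycle promoters (65.2%) and 6 of 12 erythroid promoters, and in 12 of 33 lysosomal promoters (36.4%). Mvk held 5 matches, at −173, −120, −67, −50 and −14 from the start, and Hsd17b7 held 3. CACGTG was in 12 of 33 lysosomal promoters (36.4%), against 7.15% of all. Lamp1 held 4 matches between −61 and −15, and Ctsd held 2. AGATAA was in 6 of 12 erythroid promoters and in 3 of 6 MHC class II promoters, against 11.2% of all. In all, 14 motifs were searched on both strands in 8 lists, and the 3 shown were picked after their counts had been seen, so no test is given. The others, with their share of all promoters, were CTGATTGG (4.10%), which contains ATTGG, GTCACGTG (2.25%) and TCACGTGA (0.974%), which contain CACGTG, TCACCCCAC (0.551%), which is a case of TCACNCCAC (1.24%), TGACGTCA (1.79%), TTTCCCGC (1.07%), TTTGAA (17.9%), CAGGAAGT (3.33%), the CArG box of serum response factor (0.0639%) and CCCNNGGG (13.7%). A match describes the letters only.

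Endothelial genes were the cell type list with the lowest median, −4.44, with 27 of 29 measured genes lower and 2 higher. Of these 29, 17 were detected on no cultured array. Only the fresh group detected 20 of the 29 on both of its arrays, so the count of falls was partly set by the detection filter. Pecam1, which encodes CD31, had 4.67 and 4.85 in cultured and 9.39 and 9.01 in fresh stroma (at least 18.6-fold lower). Cdh5, the VE-cadherin gene, read 4.53 on each cultured array, against 9.16 and 9.11 in fresh stroma. Tek, the angiopoietin receptor gene, gave 4.27 and 4.30 in cultured and 6.69 and 6.67 in fresh stroma. All 3 defining genes were thus below detection after culture. Clec4g, a lectin gene of sinusoidal endothelium, fell at least 61.0-fold, Gja4, which encodes a gap junction protein of arteries, at least 36.7-fold, and Edn1, the endothelin 1 gene, at least 10.2-fold. The 2 genes that rose were Stab1, which macrophages express too (10.02 and 9.89 in cultured, 7.87 and 8.30 in fresh stroma), and Jam2, a junction gene that stromal cells express too (7.14 and 7.58 in cultured, 5.70 and 5.71 in fresh stroma).

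Smooth muscle and pericyte genes fell to unequal extents, 14 of 15 with a median difference of −1.48. Myh11, the smooth muscle myosin gene, had 6.08 and 5.97 in cultured and 10.99 and 10.86 in fresh stroma, a 29.9-fold fall (adjusted p = 1.04e-09). Acta2, the smooth muscle actin gene, stayed bright, with 13.29 and 13.27 in cultured and 14.53 and 14.31 in fresh stroma, a 2.20-fold fall, and Tagln fell 1.5-fold. A second Acta2 probe fell 1.69-fold and another did not pass (adjusted p = 0.355). The calls of Tagln and of the brightest Acta2 probe were lost under scaling to the 75th percentile (adjusted p = 0.0866 for Acta2 and 0.224 for Tagln). Notch3 and Mcam, receptor genes of mural cells, fell as well. Mcam fell 9.08-fold, and Notch3 was detected on only 1 cultured array, so no fold is given for it.

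Genes of the lymphoid reticular network and of follicular dendritic cells were mostly lower. Of 13 reticular and T-zone genes, 9 fell and 3 rose, with a median difference of −0.74. Only the fresh group detected 5 of these 13 on both of its arrays. Cxcl13, the chemokine gene that draws B cells to follicles, was below detection on both cultured arrays (4.48 and 4.56), against 10.90 and 10.75 in fresh stroma, at least 57.5-fold lower. Madcam1, the addressin gene, read 4.40 and 4.53 in cultured and 8.84 and 8.81 in fresh stroma. Il7, the T cell survival cytokine gene, had 4.68 and 4.97 in cultured and 8.25 and 8.22 in fresh stroma. It fell (adjusted p = 2.25e-08), but only 1 cultured array detected it, so no fold is given. The 3 genes that rose were Pdpn, Ch25h and Grem1. Ch25h, whose enzyme hydroxylates cholesterol for oxysterols that attract B cells, gave 8.42 and 8.85 in cultured and 6.96 and 6.63 in fresh stroma, and Grem1, a BMP antagonist gene, gave 9.93 and 9.69 in cultured and 5.62 and 5.0 in fresh stroma (22.6-fold). Ltbr itself did not pass, with 6.65 and 7.0 in cultured and 6.44 and 6.80 in fresh stroma (adjusted p = 0.383).

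All 8 measured genes of the follicular dendritic cell list fell, with a median of −1.53. The list is not specific to these cells, since Fcer2a is also on the B cell list and Vcam1 on the red pulp macrophage list. Only the fresh group detected 3 of the 8 on both of its arrays. Clu, the clusterin gene, had 4.65 and 4.99 in cultured stroma, where 1 array detected it, against 12.64 and 12.26 in fresh stroma. It fell (adjusted p = 3.13e-10), again with no fold given. Mfge8, whose product tags apoptotic cells, stayed bright at 11.73 and 11.89 in cultured and 13.36 and 13.30 in fresh stroma. Tnfsf13b, the gene of the B cell survival factor BAFF, read 5.51 and 5.85 in cultured and 9.02 and 8.84 in fresh stroma, a 9.51-fold fall. Vcam1, an adhesion gene of stroma and red pulp macrophages, fell 4.71-fold. Prnp, the prion protein gene, fell 1.73-fold, with 11.27 and 11.12 in cultured and 11.93 and 12.03 in fresh stroma, but scaling to the 75th percentile turned its direction (0.09, adjusted p = 0.681) and that scaling also took the call from Mfge8 (adjusted p = 0.0510). Vegfa, the endothelial growth factor gene, fell 1.66-fold (adjusted p = 0.00384, and 0.295 under that scaling).

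Fibroblast genes went both ways. Of 18 measured genes, 10 rose and 5 fell, with a median difference of 0.85, or 0.05 without the detection filter. Col1a1, a chain of type I collagen, had 9.09 and 9.60 in cultured and 9.42 and 9.49 in fresh stroma and did not pass (difference −0.11, SE 0.18, adjusted p = 0.605). Dcn, the decorin gene, rose 1.78-fold, with 11.92 and 12.03 in cultured and 11.38 and 10.90 in fresh stroma on its brightest probe. Its other 3 probes rose as well, by 6.44-fold and 8.26-fold on those detected on all 4 arrays. Lum, the lumican gene, was detected only in cultured stroma, at 7.86 and 7.67, against 4.65 and 4.73 in fresh stroma (at least 7.69-fold higher). Pdgfra, a growth factor receptor gene of fibroblasts, fell 1.67-fold and lost its call under scaling to the 75th percentile (adjusted p = 0.151). S100a4 rose 7.84-fold and Fn1, the fibronectin gene, rose 3.74-fold. Among falls, Mgp, a calcification inhibitor gene, gave 8.15 and 7.98 in cultured and 11.79 and 11.86 in fresh stroma.

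Matrix genes also went both ways. Of 25 collagen and collagen processing genes, 13 fell and 7 rose. Col18a1, a basement membrane collagen gene, had 7.62 and 7.17 in cultured and 11.25 and 11.02 in fresh stroma (13.4-fold lower), and Col6a1 fell 9.91-fold. Col3a1, the reticular fibre collagen gene, fell too, but only 1 cultured array detected it, so no fold is given. The 7 that rose were Lox, Loxl2, Plod1, Plod3, P4ha2, P4hb and P3h1, all of which encode enzymes that cross-link or hydroxylate collagen. Lox gave 10.57 and 11.06 in cultured and 8.72 and 8.55 in fresh stroma. Of 13 laminin and basement membrane genes, 11 fell and none rose. Lamb2 fell 12.3-fold (6.19 and 6.59 in cultured, 9.94 and 10.08 in fresh stroma), and Agrn, the agrin gene, fell 7.51-fold. Of 17 proteoglycan and elastic fibre genes, 10 fell and 6 rose. Eln, the elastin gene, read 4.65 and 4.70 in cultured and 10.15 and 10.45 in fresh stroma (at least 39.8-fold lower), and Ltbp4, needed for elastic fibre assembly, fell at least 37.8-fold (at least 1.71-fold on its dimmer probe). Fbln2, the fibulin 2 gene, rose 9.31-fold on its brighter probe (at least 2.06-fold on the dimmer one), with 11.12 and 11.34 in cultured and 8.13 and 7.89 in fresh stroma.

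Matrix proteases and their inhibitors rose in 17 of 25 cases and fell in 5. Mmp3 read 11.01 and 10.90 in cultured and 6.01 and 6.37 in fresh stroma, and Mmp10, the second stromelysin gene, read 10.39 and 10.51 in cultured and 5.73 and 6.04 in fresh stroma (27.2-fold and 23.7-fold). Timp1, an inhibitor gene of these enzymes, had 12.94 and 12.92 in cultured and 8.62 and 8.88 in fresh stroma, an 18.1-fold rise. Timp3, the matrix-bound inhibitor gene, moved the other way, with 8.93 and 9.25 in cultured and 11.44 and 11.50 in fresh stroma (5.19-fold lower). Mmp2, the gelatinase gene of fibroblasts, did not pass in this fit (difference −0.17), while scaling to the 75th percentile gave 0.45 (adjusted p = 0.0484).

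Genes of blood cells mostly fell in cultured stroma. Many were described because both fresh arrays detected them while the cultured arrays did not both do so. Such genes could hardly rise, so the counts of falls were partly set by the detection filter. They made up 12 of 18 B cell, 13 of 18 T and NK cell, 15 of 19 erythroid, 11 of 16 granulocyte and 9 of 12 acinar genes. Of 18 B cell genes, 17 fell and none rose (median −3.08), and 12 were detected on no cultured array. Cd79a and Cd79b, chains of the B cell receptor complex, were below detection on both cultured arrays and read 10.14 and 10.44 and 11.65 and 11.91 in fresh stroma. Of 18 T and NK cell genes, 14 fell and 1 rose (median −2.85), and Cd3e read 4.69 and 4.61 in cultured and 8.68 and 8.60 in fresh stroma. The T cell list gene that rose was Cd28, with 8.06 and 7.62 in cultured and 5.22 and 5.21 in fresh stroma. Of 19 erythroid genes, 16 fell and Fech rose. Granulocyte genes fell in 13 of 16 cases, among them Mpo and Ltf, while Lcn2 and Mmp9, which macrophages and fibroblasts can also make, rose. Of 10 platelet genes 7 fell, and Pf4 and Plek rose. Pancreatic acinar genes, an outside tissue whose RNA was present in fresh stroma, fell in 11 of 12 cases, with Amy2a5 at 4.47 and 4.35 in cultured and 11.11 and 10.92 in fresh stroma. No acinar gene rose. Of 6 plasma cell genes 5 fell and Sdc1 rose, of 10 neuron and Schwann cell genes 7 fell and Uchl1 rose, and of 7 adipocyte genes 3 rose and 1 fell. The adipocyte calls of Pnpla2 and Slc2a4 were lost on the deposited normalized values (adjusted p = 0.0632 and 0.121). That of Lipe was lost with an offset of 50 (adjusted p = 0.0544). Of the mesothelial list 2 genes were measured, of which Wt1 fell and Gpm6a did not pass.

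Antigen presentation by MHC class II had the lowest median of all lists, −4.82, and all 9 measured genes fell. Only the fresh group detected 5 of these 9 on both of its arrays. H2-Ab1, a β chain gene, gave 7.33 and 7.49 in cultured and 13.44 and 13.39 in fresh stroma, a 63.9-fold fall. Cd74, the invariant chain gene, read 6.73 and 7.36 in cultured and 13.08 and 13.05 in fresh stroma. H2-Eb1 was detected on neither cultured array (4.56 and 4.74), against 12.10 and 12.03 in fresh stroma (at least 136-fold lower, adjusted p = 8.30e-11). H2-Aa fell at least 42.0-fold. B cell markers, which belong to cells that carry class II, fell on the same arrays, with means over 18 genes of 5.39 and 5.37 on cultured and 8.48 and 8.54 on fresh arrays. Dendritic cell genes were also lower, with 6 of 9 fallen and none risen, though only the fresh group detected 5 of the 9 on both arrays. Their part in the class II fall was not tested. MHC class I genes did not follow, with 3 of 10 higher and 4 lower. B2m gave 13.66 and 13.52 in cultured and 13.45 and 13.58 in fresh stroma and did not pass, whereas scaling to the 75th percentile gave 0.79 (adjusted p = 0.00187). The peptide transporter genes Tap1 and Tap2 fell 6.73-fold and 5.34-fold and the proteasome activator gene Psme2 rose 3.59-fold. Among interferon response genes, 9 of 18 fell and 3 rose, and Rsad2, the viperin gene, moved most, with 6.80 and 6.94 in cultured and 10.90 and 10.84 in fresh stroma (16-fold lower). The calls of Ifit3 and Irgm1, which were among the 3 that rose, were lost with an offset of 50 (adjusted p = 0.0700 and 0.0566).

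Growth factor genes changed on both sides. In the insulin-like growth factor axis, Igf1 had 9.90 and 10.00 in cultured and 6.95 and 6.78 in fresh stroma (8.47-fold higher), whereas Igf2 had 5.94 and 5.82 in cultured and 10.96 and 10.62 in fresh stroma (30.1-fold lower). Igfbp5, a binding protein gene, was detected on neither cultured array, at least 76.5-fold lower. All 5 members that fell were Igf2 and binding protein genes (Igfbp4, Igfbp5, Igfbp6, Igfbp7), and the 3 that rose were Igf1, Igf1r and Igf2r. In the TGF-β, BMP and activin pathway 9 of 20 genes rose and 9 fell. Bmp4 read 4.48 and 4.51 in cultured and 9.03 and 9.82 in fresh stroma (at least 21.8-fold lower), and Thbs1, the thrombospondin 1 gene, was detected only in cultured stroma (at least 8.40-fold higher). Fst, the activin-binding follistatin gene, rose 3.30-fold.

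Of 20 transcription factor genes that mark spleen stroma and its position, 7 were higher (35%) and 8 lower (40%), shares close to the 33.1% and 34.2% over all genes. Nkx2-3, a homeobox gene required for normal spleen architecture, had 6.06 and 6.02 in cultured and 9.36 and 9.39 in fresh stroma, a 10.1-fold fall (adjusted p = 9.88e-09), and fell at least 1.89-fold on its dimmer probe. Wt1, a factor of mesothelium and spleen mesenchyme, fell 8.50-fold, with 5.26 and 5.24 in cultured and 8.31 and 8.36 in fresh stroma. Barx1, a homeobox gene of stomach and spleen mesenchyme, was detected only in cultured stroma, at 7.70 and 7.66, against 4.70 and 4.58 in fresh stroma (at least 7.24-fold higher). Hoxa5 and Hoxa7 rose 3.08-fold and 3.96-fold.

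Cell cycle genes differed little. Of 27 measured genes of DNA replication and mitosis, 13 fell, 3 rose and 11 did not pass, and no gene moved over 4-fold. Some calls depended on the probe. Tk1 fell 2.20-fold on its brighter probe and rose 1.45-fold on the other, and Birc5 also had probes called in opposite directions. Cdc20 did not pass on its brightest probe. It rose on another that 1 fresh array detected, and at least 2.87-fold on the last, which neither fresh array detected. E2f1, 1 of the 3 that rose, lost its call without the detection filter (adjusted p = 0.0565). Mcm5, a replicative helicase gene, read 8.10 and 8.31 in cultured and 9.34 and 9.81 in fresh stroma (2.58-fold lower), while Cdk1 read 8.01 and 8.60 in cultured and 6.77 and 6.82 in fresh stroma (2.84-fold higher). Top2a did not pass (adjusted p = 0.144). A list of G1 cyclins, CDK inhibitors, p53 targets and related genes rose in 10 of 16 cases and fell in 3. It mixes genes that drive cells through G1 with genes that halt them, so the count has no single meaning. Among the falls, Ccnd1 had another probe that rose 1.62-fold (adjusted p = 0.0338). Scaling to the 75th percentile turned Ccnd1 (0.41, adjusted p = 0.0498) and took the call from Ccnd2 (adjusted p = 0.0767). Cdkn1a, which encodes the CDK inhibitor p21, gave 10.84 and 11.03 in cultured stroma, against 7.75 and 6.75 in fresh stroma, where the replicates lay 1 log2 unit apart (difference 3.68, SE 0.44, adjusted p = 3.06e-05). Ccng1, a p53 target gene, had 8.12 and 8.48 in cultured and 4.92 and 4.84 in fresh stroma (10.7-fold), and Cdkn2b, the gene of p15, rose 5.65-fold. Cdkn1c, the gene of p57, fell 3.76-fold.

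Energy metabolism genes rose broadly. Of 13 glycolytic genes, 10 rose, 3 of them over 4-fold, and 1, Pfkm, fell on its brighter probe and rose on its dimmer one. Hk2, the inducible hexokinase gene, read 10.35 and 10.31 in cultured and 7.70 and 7.72 in fresh stroma (6.17-fold), Aldoc rose 12.6-fold (at least 1.92-fold on its dimmer probe), and Gapdh, often used for scaling, rose 4.10-fold (13.87 and 13.99 in cultured, 12.09 and 11.69 in fresh stroma). Of 43 respiratory chain and ATP synthase genes, 34 rose and 1 fell, with a median of 0.81, and none moved over 4-fold. Sdhb gave 9.44 and 9.72 in cultured and 7.97 and 7.62 in fresh stroma. Cytosolic ribosomal protein genes had a median of 0.00, with 14 of 37 higher and 6 lower. The direction of this list depended on scaling, since its median was 0.74 at the highest setting and −0.11 at the lowest.

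Stress response genes rose for the most part. Of 10 targets of the antioxidant factor Nrf2, 8 rose and 1 fell, with Srxn1 at 9.28 and 9.07 in cultured and 6.40 and 6.60 in fresh stroma (6.39-fold) and Nqo1, detected on 1 fresh array, higher as well (adjusted p = 4.32e-07). Of 16 genes of amino acid and endoplasmic reticulum stress, 12 rose and 2 fell. Psat1, a serine synthesis gene, had 8.92 and 8.93 in cultured and 5.81 and 5.79 in fresh stroma (8.70-fold), and Atf5 rose 6.45-fold. Immediate early genes, which respond within minutes to handling, did not move as a group, with 6 of 15 higher, 3 lower and 6 not past the test. Ier3 rose 8.85-fold and Egr1 gave 7.35 and 7.38 in cultured and 7.37 and 7.40 in fresh stroma. NF-κB family and regulator genes fell in 9 of 16 cases and rose in 1, Ikbkg. Relb, of the alternative NF-κB pathway downstream of LTβR, read 6.44 and 6.55 in cultured and 7.55 and 7.65 in fresh stroma (2.15-fold lower), and Traf1, detected on 1 cultured array, fell (adjusted p = 4.88e-08). Among clock genes Per2 and Nr1d1 fell 5.47-fold and 4.27-fold, and 6 of 10 fell in all. Of 7 heat shock genes 4 rose and 1, Hspb1, fell. Of 23 actin and adhesion genes, 11 rose and 7 fell, with Lgals1, the galectin-1 gene, at 13.84 and 13.82 in cultured and 9.95 and 10.01 in fresh stroma (14.4-fold higher) and Flna, the filamin A gene, 5.44-fold lower.

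**Figure D4:**
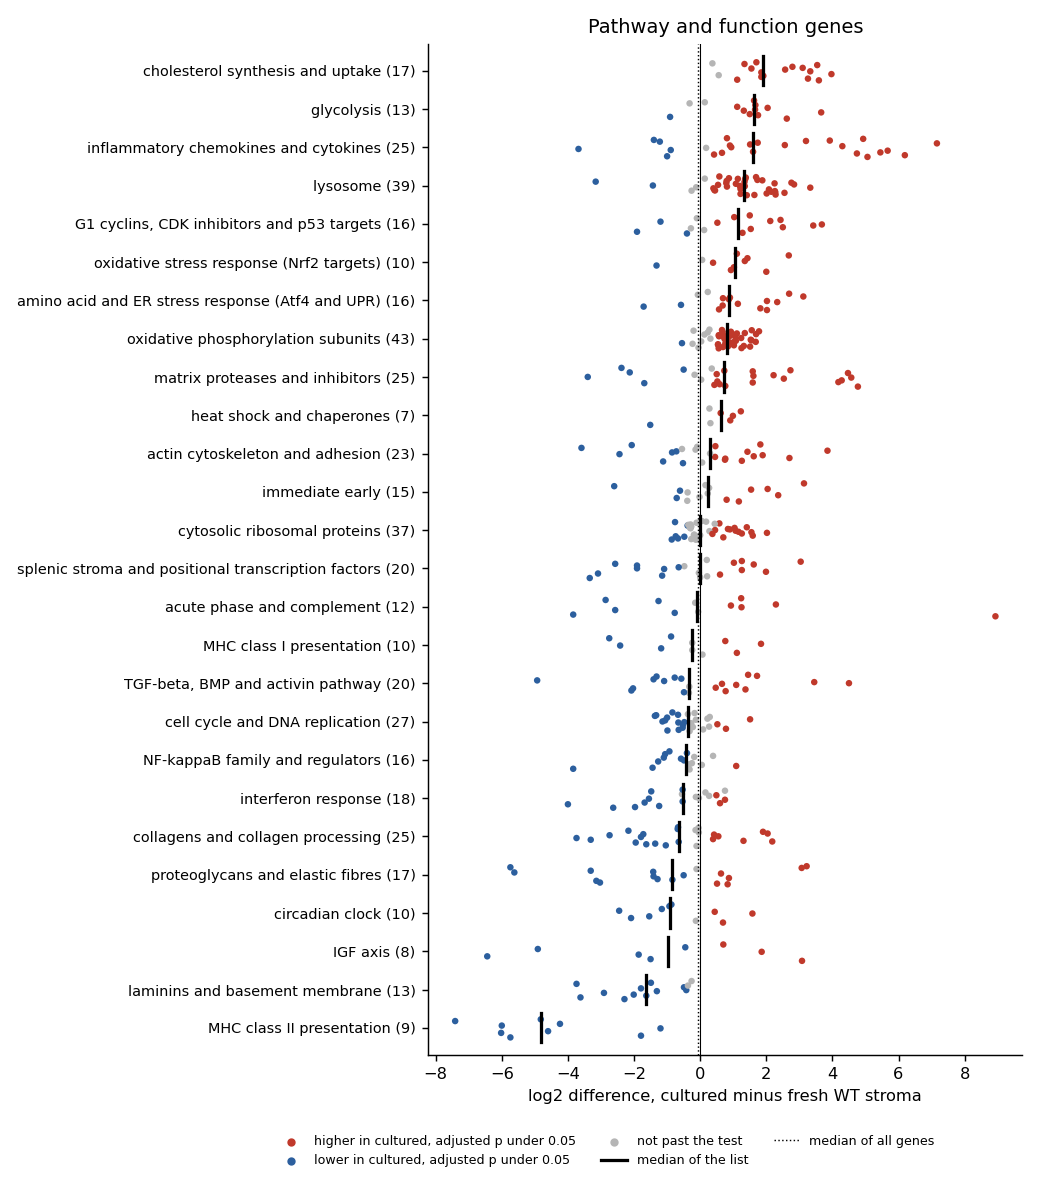
Log2 difference, cultured minus fresh WT stroma, of each measured gene in 26 lists of pathways and functions, ordered by the list median (black bar), with the number of genes measured in brackets and the median of all genes dotted. Cholesterol synthesis lies at the top with a median of 1.91, and MHC class II presentation at the bottom with a median of −4.82.

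Cultured stroma also stood apart from the other fresh samples. It was higher than each of fresh WT stroma, fresh LTβR-KO stroma and WT splenocytes on 2459 probes (21.0%) and lower than each on 2086 (17.8%), or by gene on 1720 (19.9%) and 1590 (18.4%). Between arrays, 1 minus Pearson's r over probes was 0.280 to 0.287 for cultured against fresh WT stroma and 0.011 between the cultured arrays. On 298 probes both cultured arrays gave a detected signal and none of the other 6 arrays did. Among genes whose brightest probe was of this kind, Fcrls, Trem2, Cck and Npy were the brightest, and Lum and Thbs1 belonged to them. On 656 probes the reverse held, with all 6 other arrays detected and neither cultured array. Macrophage and lipid-handling genes were brighter in cultured stroma than in splenocytes too. Over the 17 macrophage genes the array means were 10.57 and 10.67 in cultured stroma, 8.16 and 8.19 in fresh WT stroma, 8.45 and 8.41 in fresh LTβR-KO stroma and 8.51 and 8.46 in splenocytes. Fibroblast genes averaged 8.29 and 8.31 in cultured stroma, 8.0 and 7.85 in fresh WT stroma and 8.06 on each fresh LTβR-KO array, against 5.67 and 5.63 in splenocytes. Endothelial genes averaged 5.30 and 5.29 in cultured stroma, 9.43 and 9.39 in fresh WT stroma and 8.68 and 8.59 in fresh LTβR-KO stroma, against 5.74 and 5.64 in splenocytes.

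**Figure D5:**
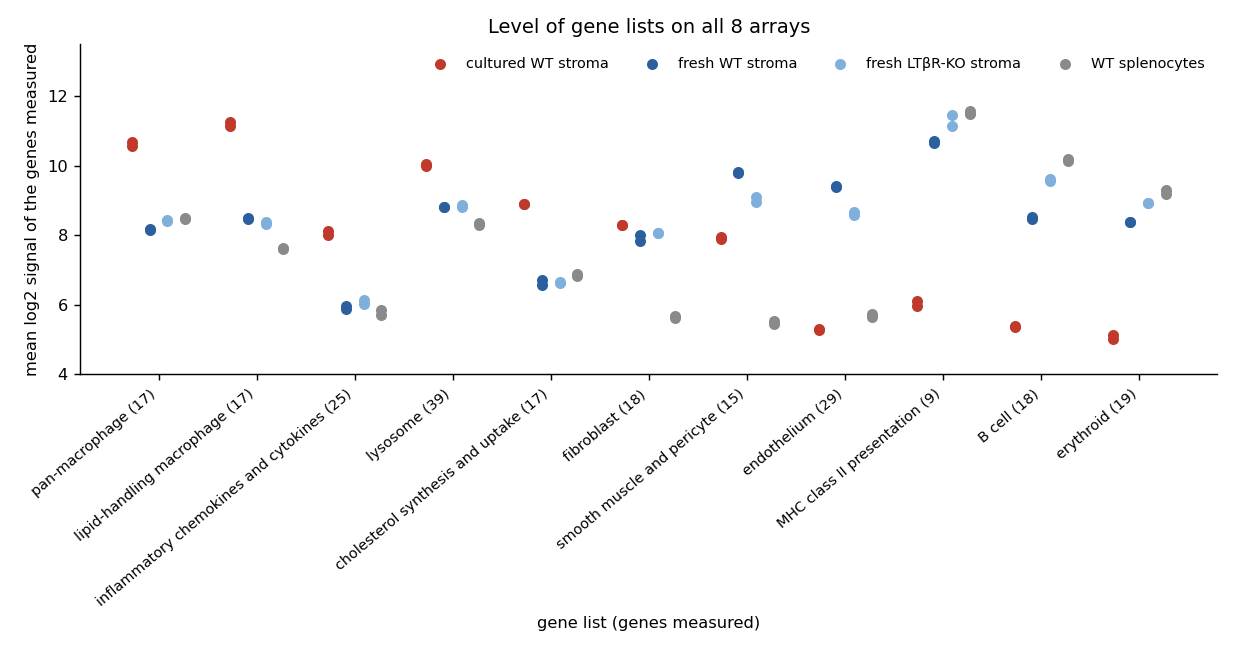
Mean log2 signal of the genes measured in 11 lists (x axis, number of genes in brackets) on each of the 8 arrays, 2 points per group. Cultured stroma lies above all other arrays for macrophage, chemokine, lysosome and cholesterol genes, and slightly above for fibroblast genes. It lies below all of them for MHC class II, B cell and erythroid genes, and slightly below splenocytes for endothelial genes.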

How the data were processed

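Per the labels and methods, total RNA (400 ng per sample) was amplified, hybridised to MouseRef-8 arrays and read with GenomeStudio. The authors deposited the bead signal as a linear intensity without normalization, a detection p-value against negative controls for each probe and array, and a second table of intensity after cubic spline normalization and background subtraction. The neqc function (normexp background, offset 16, quantile normalization) turned bead signals into log2 values. Group means were fitted over all 8 arrays with lmFit and tested with eBayes (4 residual and 6.22 prior degrees of freedom) in limma 3.58.1 under R 4.3.3, with figures and tables from Python and matplotlib 3.10.9. Of 24613 probes, 20984 carried a single symbol, and 20968 matched RefSeq genes. The brightest probe stood for a gene. Of 1316 genes with several described probes, 135 had probes called in opposite directions. Precision is limited by 2 arrays a group. Members and lists were chosen with earlier results of these data known. Genes were named by a rule: the 10 largest rises and falls measured in both groups, the 10 largest by lower bound, the first 3 and the most changed 3 each way of each list, and genes the study names. Members named as the exceptions of a list were chosen after their values were seen. Of 1060 list entries, 927 were on the array and 752 were described. Replicate numbers were not used to pair the samples in this fit.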

Additional observations from a re-analysis of the deposited data

How the results depend on the processing

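Counts of probes higher and lower in cultured stroma stayed within 1.5 times of 4142 and 3806 in every alternative run. The counts over 4-fold did not. They were 321 higher and 475 lower without background correction and 356 and 496 with an offset of 50, against 688 and 862, since both settings shrink differences of dim probes by construction. Leaving out each array in turn gave 3717 to 3802 probes higher and 3271 to 3459 lower, with 646 to 716 and 816 to 910 over 4-fold. Scaling to the 75th percentile turned the direction of 11 of 316 named genes: Actb to 0.26, Ccnd1 to 0.41, Lamp2 to 0.52, Mmp2 to 0.45, Ndufa3 to 0.65, Ndufv1 to 0.11, Prnp to 0.09, Rpl5 to 0.74, Rps18 to 0.17, Rps27 to 0.23 and Xbp1 to 0.15. The cause was not tested. In all, 32 of 290 called named genes lost their call or turned in at least 1 alternative. Of the 46 list medians, 32 moved by over 1.5 times in some alternative and 8 changed sign. These 8 were red pulp macrophages (−0.28 to 0.82), mesothelium (−1.91 to 0.03), adipocytes (−0.01 to 0.28), acute phase and complement (−0.22 to 0.44), MHC class I (−0.33 to 0.17), the TGF-β pathway (−0.59 to 0.09), actin and adhesion (−0.09 to 0.57) and positional transcription factors (−0.05 to 0.09). Without the detection filter the medians of dendritic cells (−1.53) and of neurons and Schwann cells (−1.45) were −0.27 and −0.11. With the replicate block 4129 probes were higher and 3804 lower, and 7838 probes were called with and without it. Replicate differences of cultured and fresh WT arrays correlated at −0.115, and those of fresh WT and fresh LTβR-KO arrays at 0.286. Such correlations cannot settle whether the samples were paired. A crossed pairing, chosen after seeing the data, gave 4131 probes higher and 3827 lower. The fits on 4 arrays alone give no comparison with the other fresh groups. The 2 arrays a group and signals near background limit what can be shown for dim genes.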
